A study of Homo sapiens with 48 samples.

Results

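The 8 genes described here make, bind or cut hyaluronan, a long sugar polymer of the extracellular matrix, and were taken by symbol from the 29744 genes of the deposited table. The choice used no threshold on their values but was made with earlier results of these data known. They are the synthases HAS1, HAS2 and HAS3, the precursor enzyme UGDH, the receptor CD44, the binding proteins TNFAIP6 and VCAN, and the hyaluronidase HYAL2. Hyaluronan synthases sit in the plasma membrane and join UDP-activated sugars into a chain that is pushed out of the cell. In connective tissue the chain holds water, is cross-linked by binding proteins during inflammation and is cut by hyaluronidases, and fibroblasts are among its main producers.

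Gene expression was measured by RNA-seq in 48 libraries of IL11mNG fibroblasts, in which mNeonGreen reports IL11. These cells derive from single-cell clones of the immortalized human skin fibroblast line CRL-4001. Whether all 4 groups came from the same clone is not stated. All 4 groups carried the reporter, a Cas9 construct and a lentiviral guide RNA, and each was a bulk population kept under puromycin and blasticidin. H47_Ctrl and H47_KO carried Cas9 (the CRISPRko arm), with a non-targeting or a GLIS3 guide. VP64_Ctrl and VP64_A carried dCas9–VP64, an inactive Cas9 joined to a transcriptional activator (the CRISPRa arm), again with a non-targeting or a GLIS3 guide. TGFβ and IL-1β (both at 10 ng/ml) stayed on the cells for 0, 6, 12 or 24 h, with 3 libraries in each of the 16 conditions. In the CRISPRa arm the titles and the descriptions of the libraries name opposite groups as the control, and the groups are called here by their descriptions. The cell line label of all 48 libraries also names a GLIS3 knockout, controls and CRISPRa groups included, and was not used. GLIS3 averaged 3.05 log2 units higher in VP64_A than in VP64_Ctrl (adjusted p = 5.22e-19), and -1.68 in H47_KO over H47_Ctrl (adjusted p = 5.71e-05), a contrast added after seeing the data. At single times GLIS3 in H47_KO over H47_Ctrl was called only at 0 h (-2.55, adjusted p = 0.0355), with -1.80 at 6 h (adjusted p = 0.0925), -1.21 at 12 h (adjusted p = 0.507) and -1.17 at 24 h (adjusted p = 0.383). In the CRISPRa arm GLIS3 goes with the descriptions and against the titles, and each CRISPRa direction below rests on the descriptions.

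Library totals lay between 2321990 and 10661004 estimated counts (median 5139646). The 8 fibroblast markers examined (COL1A1, COL1A2, COL3A1, PDGFRB, THY1, DCN, LUM and VIM) had counts in all 48 libraries, whereas EPCAM and CD3E were at 0 in all 48. Other listed markers of epithelium and leukocytes did have counts, up to 640 for KRT14 and from 46 to 548 for CD68. The 50 most abundant genes took from 23.1% of the counts, in VP64_Ctrl at 0 h replicate 3, to 46.4%. The study describes its cell culture work in general as done with independent biological replicates, while the labels of these libraries do not say which cultures they came from. P-values measure the spread between these libraries. In bulk RNA a lower level can mean fewer cells with the transcript or less RNA per cell, and these cannot be told apart.

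Levels between genes were compared in TPM, which accounts for transcript length. HAS2 was the only synthase with more than a trace of RNA. It contributed at least 83.8% of the summed TPM of HAS1, HAS2 and HAS3 in every library, with a median of 99.7% over the 48. HAS1 (GRCh38, 19:51713112-51723991, minus strand) had 0 counts in 40 libraries and at most 2 in any. HAS3 (16:69105653-69118719, plus strand) had 0 to 9 counts, apart from 65 in H47_KO at 24 h replicate 3. That HAS3 value stood alone, since the H47_Ctrl libraries held 0 to 3 counts. HAS3 lies across from CHTF8 on the other strand (111 to 968 counts), and the counting strand is not given in the sources used here, so its few reads cannot be assigned to HAS3 with certainty.

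VCAN (5:83471618-83582303, plus strand), the large proteoglycan that forms pericellular coats with hyaluronan, was at 0 in 40 of the 48 libraries and held 0 to 2 counts in all but 1. The exception was again H47_KO at 24 h replicate 3, with 9 counts. A library's limit of 3 counts corresponds to between 0.281 and 1.29 CPM (counts scaled to a common library size) at these depths, for counting error only. HAS1, HAS3 and VCAN were too low for the filter in both arms and were not tested. The other 5 genes passed it in both arms.

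At 0 h in H47_Ctrl the order of mean levels was CD44 (336 ± 20.3 TPM, SD, n = 3), UGDH (122 ± 6.04), TNFAIP6 (18.2 ± 2.94), HYAL2 (16.3 ± 2.98) and HAS2 (15.3 ± 1.05). The last 3 did not differ beyond their spread. After 12 h with cytokines HAS2 had become the second most abundant, at 290.4 ± 58.9 TPM, behind CD44 at 868 ± 44.5 and ahead of UGDH at 197 ± 16.3. Levels of HAS2 at 0 h were 15.3 ± 1.05 TPM in H47_Ctrl, 15.9 ± 7.89 in H47_KO, 5.81 ± 0.638 in VP64_Ctrl and 1.4 ± 0.393 in VP64_A (SD, n = 3 each). The arms were fitted apart, so no test was made between them.

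**Figure D1:**
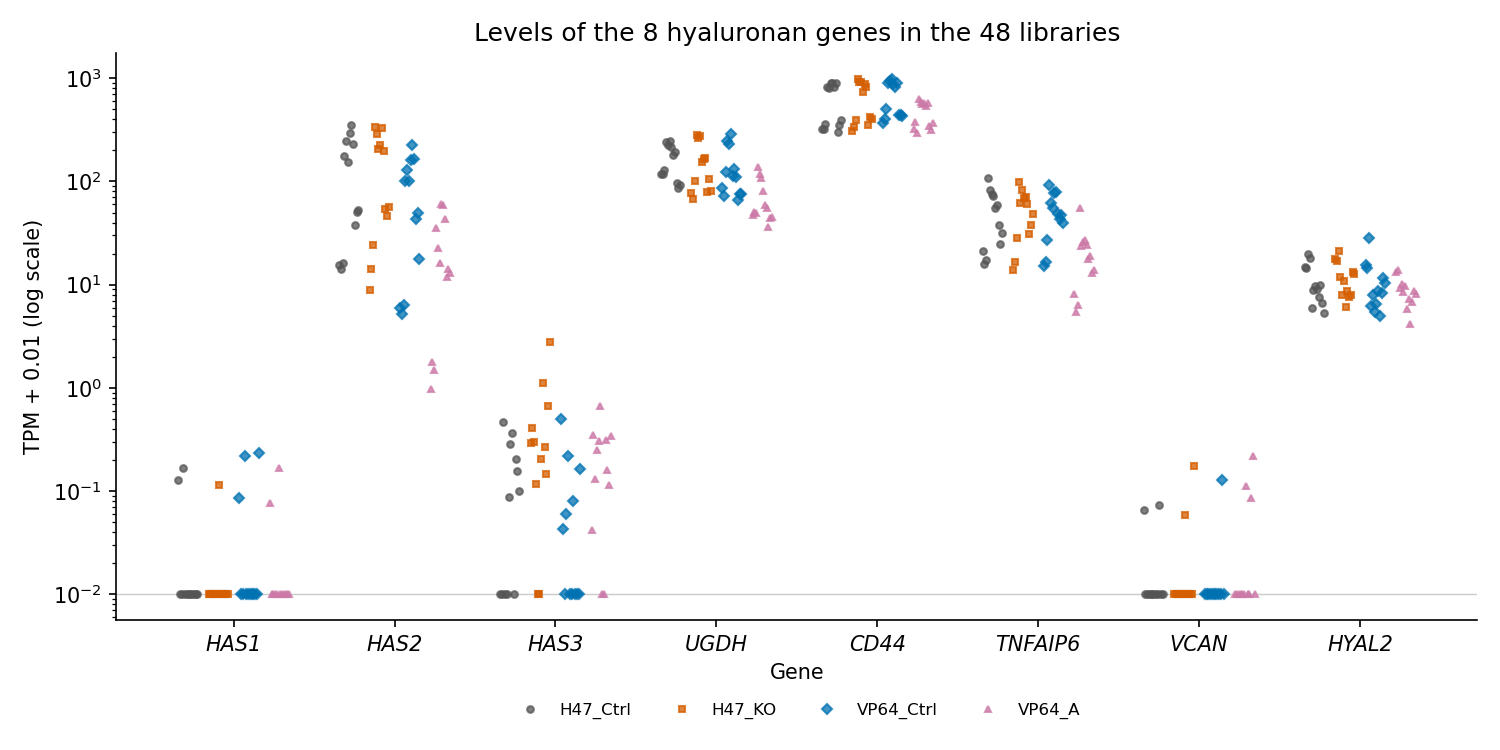
TPM (with 0.01 added, log scale) of the 8 genes in each of the 48 libraries, with symbols and colours for the 4 groups of cells and libraries ordered by time from left to right within a group. HAS1 and VCAN lie at 0 in 40 libraries each, and HAS2 spans the widest range of the detected genes.

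The question asked first was how these genes answered to TGFβ and IL-1β. HAS2, UGDH, CD44 and TNFAIP6 rose together by 6 h in all 4 groups, stayed high at 12 h and had fallen back by 24 h, whereas HYAL2 was lower at 12 h in all 4. HAS2 showed the largest change in each group, 21.3-fold at 12 h in H47_Ctrl and 25.4-fold at 6 h in H47_KO. At 12 h it was 47.1-fold in VP64_Ctrl and 49.2-fold in VP64_A. At 24 h only HAS2 and TNFAIP6 were still called above their 0 h level in every group.

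These counts stand against a broad response of the transcriptome. At 6 h 4 of the 5 detected genes were higher in each of the 4 groups, against 10.3% of all tested genes in H47_Ctrl, 13.2% in H47_KO, 16.2% in VP64_Ctrl and 11.4% in VP64_A. The fifth, HYAL2, was called lower at 6 h in VP64_Ctrl alone, although its estimate was below 0 in all 4 groups. Of all genes, 5.60%, 10.8%, 12.6% and 5.93% were called lower in the same order. At 12 h 4 genes were higher and HYAL2 was lower in every group. The share of all genes higher at that time was 11.3%, 14.4%, 15.3% and 12.6% in the same order. The share lower was 8.27%, 13%, 11.5% and 7.10%. At 24 h 2 were higher and 1 lower in H47_Ctrl (6.53% and 3.73% of all genes), 2 and 1 in H47_KO (9.07% and 6.78%), 3 and 0 in VP64_Ctrl (10.4% and 5.57%) and 2 and 0 in VP64_A (9.0% and 4.55%). The median log2 change of the 5 genes at 6 h was 1.46, 2.20, 2.24 and 1.55 in the 4 groups, beside -0.03, -0.10, -0.05 and -0.01 for all genes tested. The share of all genes whose libraries did not overlap between times is not given here. Separations between times reported below therefore have no comparison and only describe the libraries.

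HAS2 (8:121612116-121641440, minus strand) encodes the synthase that makes most hyaluronan in connective tissue. Its normalized CPM in H47_Ctrl was 29, 28.2 and 32.4 at 0 h, 265, 601 and 382 at 6 h, 604, 743 and 561 at 12 h and 85.6, 123 and 109 at 24 h. In H47_KO it was 21.7, 32 and 34.6, then 835, 915 and 511, then 579, 732 and 467, and 120.2, 81.6 and 79 at the same times. Every stimulated library of these groups lay above every 0 h library, and the 6 h and 12 h libraries overlapped. The change from 0 h in H47_Ctrl was 3.80 ± 0.28 (SE, adjusted p = 1.49e-12) log2 units at 6 h, 4.42 ± 0.29 (SE, adjusted p = 7.74e-14) at 12 h and 1.82 ± 0.27 (SE, adjusted p = 6.69e-06) at 24 h. In H47_KO it was 4.67 ± 0.29 (SE, adjusted p = 1.87e-14), 4.32 ± 0.29 (SE, adjusted p = 9.1e-14) and 1.66 ± 0.26 (SE, adjusted p = 1.63e-05).

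In VP64_Ctrl HAS2 stood at 10.5, 9.94 and 7.49 normalized CPM at 0 h, 224, 359 and 314 at 6 h, 404, 454 and 478 at 12 h and 96.5, 104 and 33.9 at 24 h. In VP64_A it stood at 2.06, 3.52 and 3.13, then 71.7, 63.2 and 43.7, then 174, 119 and 129, and 31.6, 36 and 33. In both groups all 12 h libraries exceeded all 6 h libraries, and every 24 h library still exceeded the 0 h libraries. From 0 h HAS2 rose by 4.98 ± 0.30, adjusted p = 9.16e-15, 5.56 ± 0.31, adjusted p = 1.39e-15 and 3.03 ± 0.28, adjusted p = 6.57e-10 log2 units (with SE) at 6, 12 and 24 h in VP64_Ctrl. In VP64_A it rose by 4.39 ± 0.33, adjusted p = 3.11e-12, 5.62 ± 0.34, adjusted p = 1.19e-14 and 3.56 ± 0.34, adjusted p = 8.48e-10. The antisense gene HAS2-AS1 overlaps HAS2 and held 0 to 24 counts per library where HAS2 held 19 to 4707. Without a stated strand, reads of this pair cannot be told apart.

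**Figure D2:**
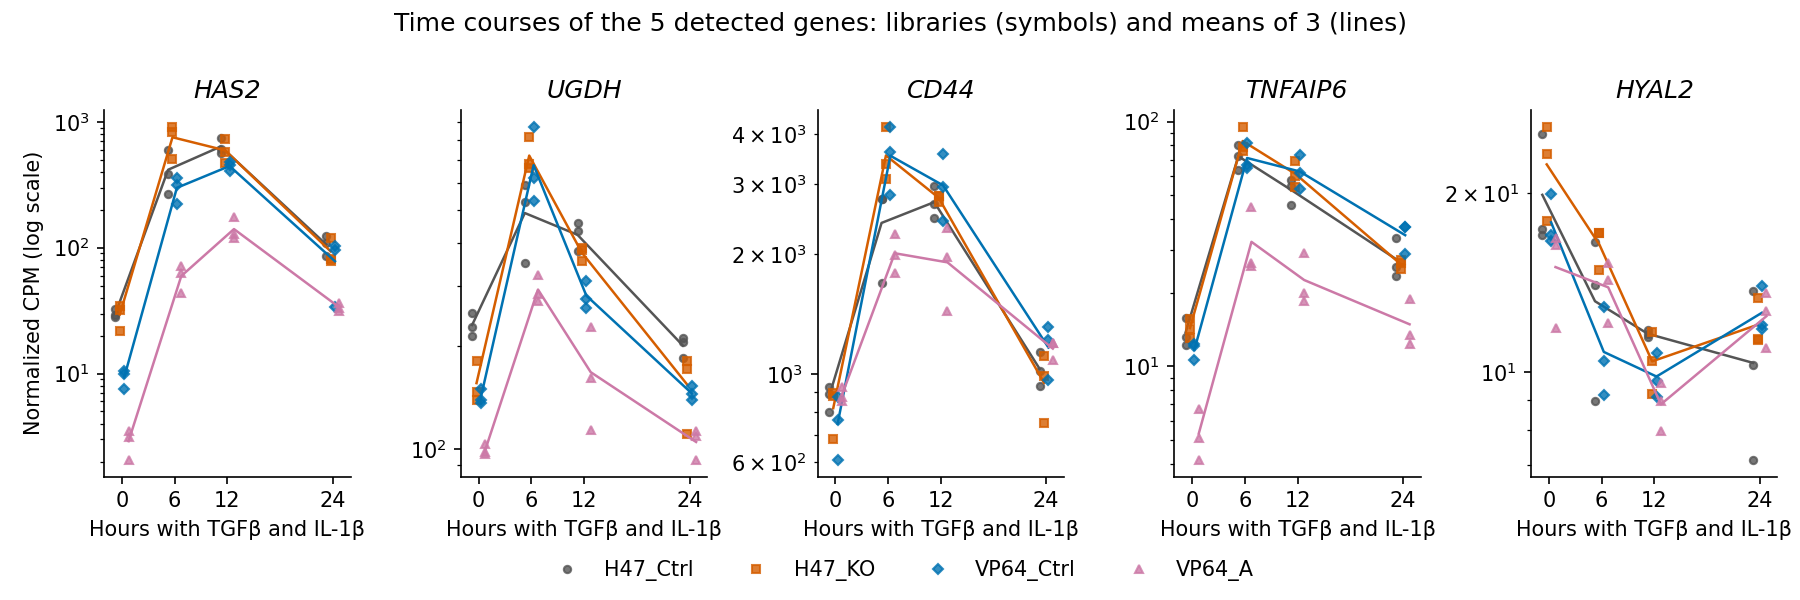
Normalized CPM (log scale) of the 5 detected genes against hours with TGFβ and IL-1β, with 1 symbol per library and a line through the mean of 3 libraries for each of the 4 groups of cells. Symbols are shifted sideways by group. HAS2, UGDH, CD44 and TNFAIP6 rise and fall in all groups, HYAL2 dips, and at 0, 6 and 12 h the VP64_A symbols of HAS2 and TNFAIP6 lie below those of VP64_Ctrl.

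UGDH (4:39498755-39528311, minus strand), which oxidizes UDP-glucose to the UDP-glucuronic acid that synthases consume, was called higher at 6 and 12 h and not at 24 h. In H47_Ctrl its normalized CPM was 215, 228 and 249.6 at 0 h, 349.9, 527 and 589.8 at 6 h, 433, 378 and 457 at 12 h and 212, 206 and 185 at 24 h. In VP64_Ctrl it was 150.2, 136 and 139.7, then 529, 620.4 and 873, then 275, 258 and 310.0, and 145, 153 and 139.5. In H47_KO it was 182, 148 and 139, then 679, 816 and 664, then 383, 354 and 387, and 172, 181 and 111. At 24 h all H47_Ctrl libraries lay below those of 0 h, and in VP64_Ctrl the 24 h and 0 h libraries overlapped. The 6 h changes were 1.08, 2.20, 2.24 and 1.55 log2 units in H47_Ctrl, H47_KO, VP64_Ctrl and VP64_A, with adjusted p-values of 8.68e-05, 1.72e-10, 1.02e-10 and 2.16e-07. At 12 h they were 0.87, 1.26, 0.98 and 0.74, all past the threshold. The 12 h call in VP64_A was lost without VP64_A 12 h replicate 1 (log2 change 0.47, adjusted p = 0.0889), and on the TPM scale the 12 h calls of both CRISPRa groups were lost. At 24 h no group passed the test, with log2 changes between -0.20 and 0.08.

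CD44 (11:35138882-35232402, plus strand), the main cell-surface receptor for hyaluronan, was the most abundant of the 8 at every time in H47_Ctrl. In that group its libraries held 804, 889 and 927 normalized CPM at 0 h, 1688, 2750.0 and 2746 at 6 h, 2679, 2460.4 and 2963 at 12 h and 931, 1137 and 1019 at 24 h. In VP64_Ctrl they held 765, 875 and 608, then 2815, 3603 and 4180.1, then 2944, 2419 and 3566, and 1310.3, 1216 and 967. In H47_KO they held 893, 881 and 686, then 3371, 4164 and 3080.1, then 2709.8, 2805 and 2796, and 1109, 988 and 751. The 6 h and 12 h libraries of these 3 groups lay wholly above those of 0 h and of 24 h. CD44 rose by 1.46 ± 0.24 (SE, adjusted p = 2.02e-05) log2 units at 6 h in H47_Ctrl, 2.11 ± 0.24 (SE, adjusted p = 2.65e-08) in H47_KO, 2.24 ± 0.23 (SE, adjusted p = 3.72e-09) in VP64_Ctrl and 1.18 ± 0.22 (SE, adjusted p = 0.000208) in VP64_A. At 12 h the changes were 1.63, 1.76, 1.99 and 1.11, all past the threshold. At 24 h the estimates were still above 0 in H47_Ctrl (0.24), H47_KO (0.21) and VP64_A (0.39) but did not pass. Only VP64_Ctrl passed at 24 h, at 0.64 ± 0.22 (SE, adjusted p = 0.0482). That call was lost without any of 4 of the 6 libraries compared, with log2 changes of 0.63 without 0 h replicate 1, 0.49 without 0 h replicate 3, 0.54 without 24 h replicate 1 and 0.58 without 24 h replicate 2, and with the replicate number as a block (adjusted p = 0.0605). DESeq2 kept it, and the other fits tried did not.

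TNFAIP6 (2:151357592-151380046, plus strand) encodes TSG-6, a secreted protein that transfers the heavy chains of inter-alpha-inhibitor onto hyaluronan. In H47_Ctrl it held 15.8, 12.2 and 13.2 normalized CPM at 0 h, 63.7, 80.2 and 72.6 at 6 h, 57.7, 45.8 and 54.4 at 12 h and 33.3, 23.4 and 25.4 at 24 h. In H47_KO it held 13.1, 14.3 and 15.7, then 95.3, 75.8 and 78.8, then 69.1, 60 and 54.3, and 27.1, 24.9 and 26.5. In both groups the 6 h libraries were the highest, and 6, 12, 24 and 0 h followed in that order without overlap. The 6 h change was 2.38 ± 0.16 (SE, adjusted p = 2.63e-13) log2 units in H47_Ctrl, a 5.2-fold rise, and 2.53 ± 0.16 (SE, adjusted p = 4.86e-14) in H47_KO. At 24 h it was still 1.01 ± 0.17 (SE, adjusted p = 7.62e-05) and 0.87 ± 0.16 (SE, adjusted p = 0.000202), and the H47_Ctrl call was lost on the log2(TPM + 1) scale (0.75, adjusted p = 0.0663).

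In VP64_Ctrl TNFAIP6 held 10.6, 12.3 and 12.1 normalized CPM at 0 h, 81.8, 66.4 and 64.9 at 6 h, 73, 61.5 and 53.1 at 12 h and 37.2, 36.9 and 28.9 at 24 h. In VP64_A it held 6.7, 4.15 and 5.11, then 44.8, 25.6 and 26.4, then 29.2, 18.5 and 19.9, and 18.8, 12.4 and 13.4. Each VP64_A library lay below each VP64_Ctrl library of the same time. The changes from 0 h at 6, 12 and 24 h were 2.61, 2.42 and 1.55 log2 units in VP64_Ctrl and 2.58, 2.01 and 1.45 in VP64_A, with adjusted p-values of at most 5.47e-05.

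The bases before the TNFAIP6 start are shown because its differences between the CRISPRa groups were called at every time, and because it was the only one of the 7 members searched with a match to either the AP-1 or the SMAD pattern. The sequence is from RefSeq (GRCh38.p14, chr2:151357342-151357591, plus strand, the 250 bases before the annotated start), with the AP-1 pattern TGANTCA and the SMAD pattern CAGACA in capitals.
TNFAIP6: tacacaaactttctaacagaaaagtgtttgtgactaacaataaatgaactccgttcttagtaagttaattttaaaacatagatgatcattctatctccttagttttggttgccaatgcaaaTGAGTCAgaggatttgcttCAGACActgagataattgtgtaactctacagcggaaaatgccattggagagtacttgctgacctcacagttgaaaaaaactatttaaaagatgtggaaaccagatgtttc
The AP-1 match began 129 bases and the SMAD match 110 bases before the start, and they do not overlap. On either strand, 6.57% of 35116 promoter windows of this length held the AP-1 pattern and 13.6% the SMAD pattern. The NF-kB pattern, 3 G followed by 5 of any base and 2 C (54.4% of windows), matched before HAS1, HAS3, CD44, VCAN and UGDH and not before TNFAIP6 or HYAL2, and the TEAD pattern GGAATG (11.9%) matched before HYAL2 and UGDH. These are matches of letters only, and HAS2 was not searched.

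HYAL2 (3:50317790-50322782, minus strand), a membrane-anchored hyaluronidase that cuts long chains at the cell surface, moved the other way. Its libraries ranged from 17 to 25.1 normalized CPM at 0 h in H47_Ctrl, from 8.96 to 16.5 at 6 h, from 11.4 to 11.8 at 12 h and from 7.13 to 13.7 at 24 h. In H47_KO the ranges were 17.9 to 25.8, 14.9 to 17.1, 9.2 to 11.7 and 11.3 to 13.4. In both, all 12 h libraries lay below all 0 h libraries. In VP64_Ctrl the ranges were 16.6 to 19.9, 9.17 to 12.9, 9.09 to 10.8 and 11.8 to 13.9, and in VP64_A 11.9 to 16.8, 12.1 to 15.3, 7.97 to 9.59 and 11 to 13.6. There too the 12 h libraries lay below those of 0 h. At 12 h HYAL2 had changed by -0.75 ± 0.25 (SE, adjusted p = 0.0265) log2 units in H47_Ctrl, -1.09 ± 0.23 (SE, adjusted p = 0.000462) in H47_KO, -0.85 ± 0.20 (SE, adjusted p = 0.00158) in VP64_Ctrl and -0.78 ± 0.20 (SE, adjusted p = 0.00561) in VP64_A. At 24 h it was -0.90 ± 0.24 (SE, adjusted p = 0.0118) in H47_Ctrl and -0.90 ± 0.22 (SE, adjusted p = 0.00409) in H47_KO, while VP64_Ctrl (-0.51, adjusted p = 0.0669) and VP64_A (-0.28, adjusted p = 0.42) did not pass. At 6 h it passed only in VP64_Ctrl (-0.73 ± 0.20, adjusted p = 0.00725, with SE). The uncalled 6 h changes were -0.56 in H47_Ctrl, -0.43 in H47_KO and -0.13 in VP64_A.

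On log2(TPM + 1) the HYAL2 calls at 12 h in H47_Ctrl (-0.82, adjusted p = 0.0777) and at 24 h in H47_KO (-0.70, adjusted p = 0.195) were lost. On that scale HYAL2 was called at 6 h in H47_KO (-0.81, adjusted p = 0.0442) and at 24 h in VP64_Ctrl (-0.83, adjusted p = 0.035). The HYAL2 calls rest on 18 to 205 counts per library and several were lost without 1 library. In H47_Ctrl the 12 h call was lost without 0 h replicate 3 (log2 change -0.56) or without 12 h replicate 1 (-0.77), 2 (-0.74) or 3 (-0.74), and the 24 h call without 0 h replicate 3 (-0.71) or 24 h replicate 3 (-0.67). In VP64_Ctrl the 6 h call was lost without 6 h replicate 1 (-0.57, adjusted p = 0.0726). HYAL2 also overlaps TUSC2 on the same strand (16 to 140 counts), so reads may be shared between these genes.

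Between 6 and 24 h the response receded. HAS2, UGDH, CD44 and TNFAIP6 were lower at 24 h than at 6 h in all 4 groups, and HYAL2 did not pass the test in any. The share of all tested genes that was lower at 24 h was 7.74% in H47_Ctrl, 12.1% in H47_KO, 9.45% in VP64_Ctrl and 6.72% in VP64_A. HAS2 fell most in H47_KO, at -3.01 ± 0.27 (SE, adjusted p = 1.98e-10) log2 units, and least in VP64_A, at -0.83 ± 0.27 (SE, adjusted p = 0.0381). The HAS2 call in VP64_A was lost without any of 5 of the 6 libraries compared (log2 changes between -0.88 and -0.70), namely 6 h replicates 1 and 2 and all of 24 h. The CD44 call in VP64_A, at -0.80 ± 0.22 (SE, adjusted p = 0.015), was lost without 6 h replicate 2 (-0.71), 24 h replicate 2 (-0.75) or 24 h replicate 3 (-0.82). On log2(TPM + 1) the calls of HAS2 in VP64_A (-0.80, adjusted p = 0.1) and TNFAIP6 in VP64_Ctrl (-0.65, adjusted p = 0.106) were lost.

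For correlations, CPM were scaled by TMM over all 48 libraries together, with a small count added before the log2. Level differences between the arms thus enter the values. Over the 16 condition means, HAS2 and TNFAIP6 had a Pearson correlation of 0.954, CD44 and HAS2 0.855, and UGDH and TNFAIP6 0.862. HYAL2 ran between -0.502 with HAS2 and -0.124 with UGDH. The points share the time course and the libraries of each group, so these values describe the pattern and are given without a test. The 3 genes most like HAS2 among 10691 tested in both arms were ITGA2, HLX and PLK3 (r = 0.964, 0.959 and 0.958). The 3 most like TNFAIP6 were ABL2, CD274 and TNIP3 (0.985, 0.959 and 0.954), and those most like CD44 were ANTXR2, RIPK2 and MLLT6 (0.975, 0.973 and 0.969). HYAL2 was most like NMT2, LPAR6 and ALDH4A1 (0.919, 0.911 and 0.909).

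The second question was whether GLIS3 perturbation altered these levels. In the CRISPRko arm edgeR with its filter called no member at any time, while DESeq2 called 3 and edgeR without the filter 1, all at 6 h, whereas in the CRISPRa arm HAS2 and TNFAIP6 were lower in VP64_A at all 4 times. HAS2 was 3.33-fold lower at 0 h, 5.0-fold at 6 h, 3.18-fold at 12 h and 2.3-fold at 24 h. The arms differ in construct and cells, and the difference between them was not tested.

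In the CRISPRko arm 0 of the 5 detected genes passed edgeR's test at 0, 6, 12 and 24 h, where 0.301%, 0.319%, 0.0821% and 0.210% of all genes did. An unadjusted p under 0.05 was reached by 1, 3, 0 and 0 of the 5. The share of all genes at that unadjusted level is not given here, so these counts have no comparison. HAS2 in H47_KO over H47_Ctrl was -0.01 ± 0.27 (SE, adjusted p = 0.994) log2 units at 0 h, 0.86 ± 0.25 (SE, adjusted p = 0.13) at 6 h, -0.10 ± 0.25 (SE, adjusted p = 0.954) at 12 h and -0.17 ± 0.25 (SE, adjusted p = 0.865) at 24 h. The HAS2 libraries of both groups overlapped at every time. At 6 h UGDH was 0.56 ± 0.19 (SE, adjusted p = 0.228) and CD44 0.56 ± 0.23 (SE, adjusted p = 0.338), and for both genes every H47_KO library lay above every H47_Ctrl library. UGDH was on the other side at 0 h, -0.56 ± 0.19 (SE, adjusted p = 0.21), again without overlap, and at 24 h, -0.38 ± 0.19 (SE, adjusted p = 0.507), where all H47_KO libraries also lay below those of H47_Ctrl. Of all genes, the groups also did not overlap at 6 h in 7.31% with H47_KO higher and at 0 h in 8.85% and at 24 h in 6.47% with H47_KO lower.

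The 6 h values of the CRISPRko arm depend on the method. DESeq2 called 3 members at 6 h, HAS2 (log2 difference 0.88, adjusted p = 0.0183), CD44 (0.58, adjusted p = 0.0302) and UGDH (0.58, adjusted p = 0.0382), and edgeR without the filter called HAS2 (0.84, adjusted p = 0.0095). Of all genes, edgeR without the filter called 142 at 6 h, against 35 with it. DESeq2 called 113 of all genes at 0 h, against 33 with edgeR, and its number at 6 h is not given here. HAS2 also passed without H47_Ctrl 6 h replicate 2 (1.22, adjusted p = 0.0406). Averaged over the 4 times, HAS2 differed by 0.14 ± 0.13 (SE, adjusted p = 0.637) log2 units, and 0 of the 5 members passed where 3.07% of all genes did.

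In the CRISPRa arm the number of detected members lower in VP64_A was 2 of 5 at 0 h, 4 at 6 h, 3 at 12 h and 2 at 24 h, and 0 were higher. Of all tested genes, 5.12%, 1.90%, 1.94% and 2.13% were lower at these times. The median log2 difference of the 5 genes was -0.51, -1.14, -0.75 and -0.47, beside -0.02, 0.01, 0.00 and -0.02 for all genes.

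HAS2 was lower in VP64_A at every time. Its difference from VP64_Ctrl was -1.73 ± 0.35 (SE, adjusted p = 0.00109) log2 units at 0 h, -2.32 ± 0.26 (SE, adjusted p = 2.3e-07) at 6 h, -1.67 ± 0.25 (SE, adjusted p = 3.41e-05) at 12 h and -1.20 ± 0.27 (SE, adjusted p = 0.00458) at 24 h. The libraries of both groups, given above, did not overlap at 0, 6 and 12 h, where 13.4%, 8.94% and 8.32% of all genes were lower in VP64_A without overlap (11.1% at 24 h). At 24 h VP64_Ctrl replicate 3, at 33.9 normalized CPM, fell among the VP64_A libraries, while the other two VP64_Ctrl libraries lay above them. The 24 h call was lost without VP64_Ctrl 24 h replicate 1 (-0.997, adjusted p = 0.0569) or replicate 2 (-0.96, adjusted p = 0.0556). Without VP64_Ctrl 0 h replicate 3, the library whose composition stood apart, the 0 h difference was -1.86 (adjusted p = 0.00142).

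TNFAIP6 was lower in VP64_A at every time too. Its log2 difference was -1.10 ± 0.24, adjusted p = 0.00225 at 0 h, -1.14 ± 0.21, adjusted p = 0.000398 at 6 h, -1.52 ± 0.21, adjusted p = 1.05e-05 at 12 h and -1.20 ± 0.22, adjusted p = 0.000602 at 24 h (each with SE). These 4 TNFAIP6 calls held under each of the 7 other fits tried and without any single library of the groups compared. VP64_Ctrl held 2.15 times the TNFAIP6 RNA of VP64_A at 0 h and 2.86 times at 12 h.

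UGDH libraries of VP64_A held 97.2, 98.6 and 103 normalized CPM at 0 h, 271, 323 and 284 at 6 h, 228, 114 and 162 at 12 h and 93.2, 109 and 113 at 24 h, each below every VP64_Ctrl library of its time. The difference was -0.51 ± 0.19 (SE, adjusted p = 0.0881) log2 units at 0 h, -1.20 ± 0.19 (SE, adjusted p = 6.71e-05) at 6 h, -0.75 ± 0.19 (SE, adjusted p = 0.0163) at 12 h and -0.47 ± 0.19 (SE, adjusted p = 0.221) at 24 h. The 12 h call was lost without VP64_Ctrl 12 h replicate 3 (-0.67), VP64_A 12 h replicate 2 (-0.53) or VP64_A 12 h replicate 3 (-0.73). Averaged over the 4 times the difference was -0.73 ± 0.10 (SE, adjusted p = 5.25e-07), a comparison in which 18.4% of all genes passed.

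CD44 libraries of VP64_A held 877, 926 and 854 normalized CPM at 0 h, 1793, 2242 and 1993 at 6 h, 2321, 1435 and 1963 at 12 h and 1193, 1085 and 1194 at 24 h. They overlapped VP64_Ctrl at 0 and 24 h and lay below it at 6 and 12 h. CD44 was called only at 6 h, at -0.81 ± 0.22 (SE, adjusted p = 0.0295) log2 units, with -0.64 ± 0.22 (SE, adjusted p = 0.109) at 12 h. The 6 h call was lost without any of 5 of the 6 libraries, with log2 differences of -0.80 and -0.68 without VP64_Ctrl replicates 2 and 3, and of -0.75, -0.90 and -0.81 without VP64_A replicates 1, 2 and 3. HYAL2 differed by -0.23 to 0.37 log2 units and passed at no time.

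**Figure D3:**
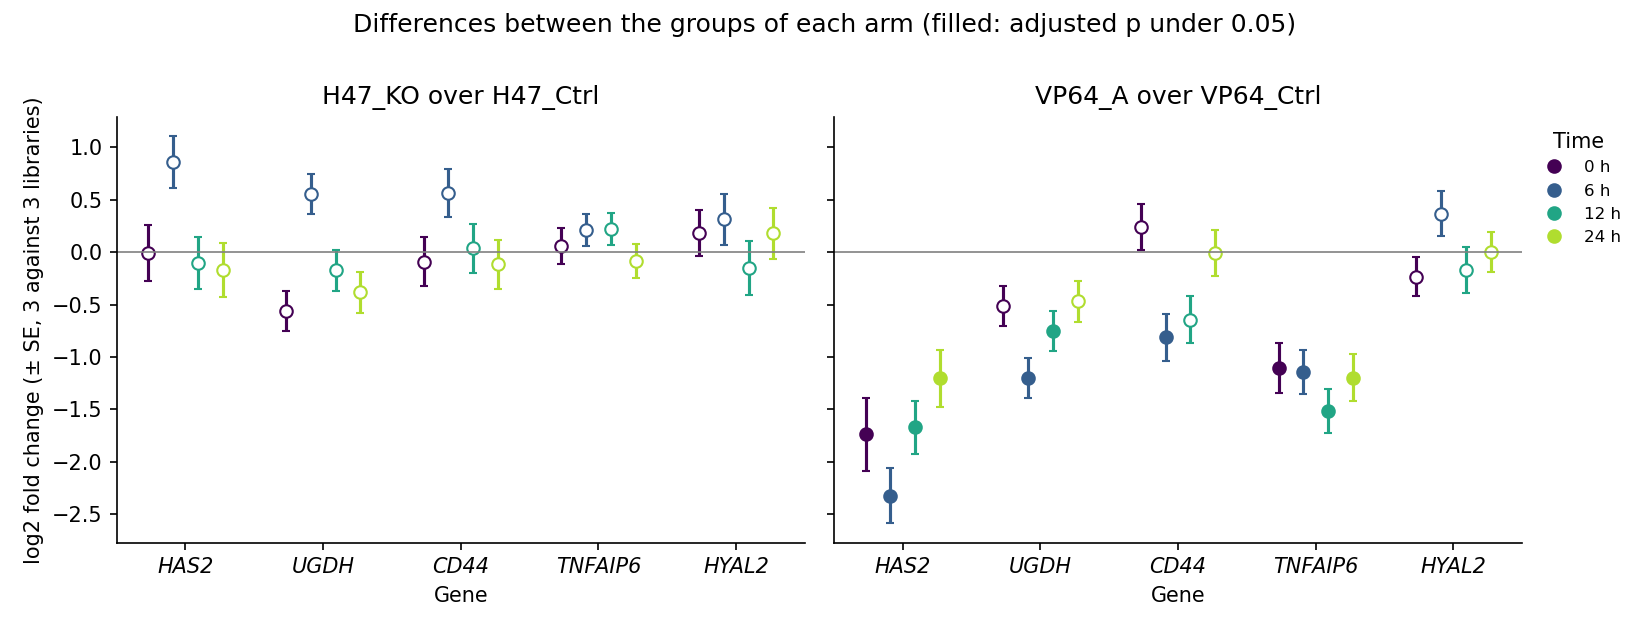
Log2 fold change of the 5 detected genes between the groups of each arm at 0, 6, 12 and 24 h, with bars for the standard error of 3 against 3 libraries and filled symbols for an adjusted p under 0.05. No symbol is filled for H47_KO over H47_Ctrl, and for VP64_A over VP64_Ctrl HAS2 and TNFAIP6 are filled at all 4 times.

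Scaling matters in this arm. On log2(TPM + 1), which is not centred on the median gene, the median of all genes differed by -0.33, 0.10, -0.05 and -0.25 between VP64_A and VP64_Ctrl at 0, 6, 12 and 24 h. On that scale HAS2 differed by -1.51, -2.18, -1.73 and -1.31 and TNFAIP6 by -1.41, -1.04, -1.51 and -1.46, all called. UGDH at 0 h (-0.88, adjusted p = 0.00205) and 24 h (-0.78, adjusted p = 0.00948) and CD44 at 12 h (-0.62, adjusted p = 0.00224) were called on that scale as well. CD44 at 0 h turned from 0.24 to -0.35, uncalled on both scales.

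Markers of other cells also had different ranges in the CRISPRa groups. The summed TPM of the 4 epithelial markers EPCAM, CDH1, KRT5 and KRT14 ranged from 2.17 to 12.8 in VP64_Ctrl and from 14.1 to 78.9 in VP64_A, against at most 1.66 in H47_Ctrl and 0.497 in H47_KO. KRT14 carried nearly all of it, with 6 to 137 counts in VP64_Ctrl and 52 to 640 in VP64_A, while EPCAM was at 0, KRT5 reached at most 1 count and CDH1 at most 2. The 8 fibroblast markers summed to between 11286 and 23124 TPM in VP64_Ctrl and between 16072 and 21788 in VP64_A. The 4 leukocyte markers summed to between 18.2 and 69.7 in VP64_Ctrl and between 13.7 and 36.7 in VP64_A, with CD3E at 0 and CD68 carrying most of it. Endothelial and melanocyte lists reached at most 0.615 and 0.879 TPM in any library. The part of these differences in the HAS2, TNFAIP6 and UGDH results was not tested.

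The third question was whether the change from 0 h itself differed between the groups of an arm. No member passed this interaction test in either arm. In the CRISPRko arm 0 of 5 passed edgeR's test at 6, 12 and 24 h, where 0.00912%, 0.00% and 0.00% of all genes passed. An unadjusted p under 0.05 was reached by 2, 0 and 0 of the 5, without a share of all genes to compare. UGDH came closest, rising 1.12 ± 0.27 (SE, adjusted p = 0.188) log2 units more in H47_KO by 6 h, which DESeq2 called (1.15, adjusted p = 0.00339), as did edgeR without the filter (1.10, adjusted p = 0.0486). In the CRISPRa arm 0 of 5 passed, where 0.0911%, 0.264% and 0.209% of all genes passed. An unadjusted p under 0.05 was reached by 3, 1 and 0 of the 5, again without a share of all genes to compare. The 6 h change of CD44 in VP64_A less that in VP64_Ctrl was -1.05 ± 0.31 (SE, adjusted p = 0.284) log2 units, called by DESeq2 alone (-1.08, adjusted p = 0.0114). How many of all genes the other fits called in the 6 h interactions is not given here. For HAS2 the interaction at 6 h was -0.59 ± 0.45 (SE, adjusted p = 0.725), so a change in its fold response was not detectable although its level was lower at every time.

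A list of 38 other hyaluronan genes was read beside the members. The filter kept 18 of these for CRISPRko and 17 for CRISPRa. At 6 h 8 were higher and 2 lower in H47_Ctrl, 10 and 2 in H47_KO, 10 and 0 in VP64_Ctrl, and 8 and 3 in VP64_A. The shares of all genes higher and lower were 10.3% and 5.60%, 13.2% and 10.8%, 16.2% and 12.6%, and 11.4% and 5.93%. The median log2 change of the list at 6 h was 0.61, 0.76, 0.76 and 0.41 in these groups. By 24 h 3 were higher and 1 lower in H47_Ctrl, 3 and 2 in H47_KO, 5 and 0 in VP64_Ctrl, and 5 and 1 in VP64_A, where 6.53% and 3.73%, 9.07% and 6.78%, 10.4% and 5.57%, and 9.0% and 4.55% of all genes did so. The list had medians of -0.01, 0.08, 0.15 and 0.18, beside 0.01, 0.02, -0.00 and 0.00 for all genes. In both CRISPRa groups the medians were the same with GFPT2 at the limit set by 3 counts. Between H47_KO and H47_Ctrl 0 of 18 passed edgeR's test at any time, against 0.301%, 0.319%, 0.0821% and 0.210% of all genes. An unadjusted p under 0.05 was reached by 2, 1, 2 and 3 of the 18, without a share of all genes to compare. In VP64_A over VP64_Ctrl 4 of 17 were higher and 1 lower at 0 h, 1 and 0 at 6 h, 1 and 1 at 12 h, and 2 and 2 at 24 h, where 4.29%, 1.86%, 2.37% and 1.99% of all genes were higher and 5.12%, 1.90%, 1.94% and 2.13% lower.

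Most sugar-supply enzymes, which make the UDP-sugars, were higher at 6 h. Of the 7 on the list, 5 were higher at 6 h in H47_Ctrl, 6 in H47_KO, 6 in VP64_Ctrl and 5 in VP64_A, against 10.3%, 13.2%, 16.2% and 11.4% of all genes. GFPT2, an isoform of the enzyme that commits glucose to UDP-N-acetylglucosamine, held 0.675, 0.483 and 0.81 normalized CPM at 0 h and 246, 169 and 189 at 12 h in H47_Ctrl, a log2 change of 8.25. In VP64_Ctrl it had 0 counts in all 3 libraries at 0 h and 92.9, 65.7 and 69.1 normalized CPM at 12 h, which is at least 241-fold higher than 3 counts per library. At 24 h VP64_Ctrl held 21.7, 15.9 and 21.1 and VP64_A 5.22, 3.43 and 4.9, a difference of -2.10 ± 0.28 (SE, adjusted p = 4.75e-06) log2 units. PGM1, a phosphoglucomutase, ran the other way in VP64_A, 1.26 ± 0.16 (SE, adjusted p = 1.45e-06) higher at 24 h and called at all 4 times.

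Among breakdown genes CEMIP and CEMIP2, related proteins tied to hyaluronan degradation, changed in opposite directions at 24 h in H47_Ctrl, H47_KO and VP64_A. CEMIP (KIAA1199 in the table) held 7.43, 15 and 16.2 normalized CPM at 0 h and 2.66, 0.467 and 1.66 at 24 h in H47_Ctrl, a change of -2.78 ± 0.41 (SE, adjusted p = 6.37e-06) log2 units. In H47_KO it fell by 3.79 ± 0.37 (SE, adjusted p = 1.85e-09). In VP64_A it changed by -1.73 ± 0.48 (SE, adjusted p = 0.012), and in VP64_Ctrl by -1.27 ± 0.59 (SE, adjusted p = 0.152), which did not pass. CEMIP was higher in VP64_A than in VP64_Ctrl at 0 h, by 2.24 ± 0.46 (SE, adjusted p = 0.0015), and did not pass at the other times (1.77, 2.28 and 1.78). CEMIP2 (TMEM2 in the table) was higher at 24 h in all 4 groups, by 1.52, 1.72, 1.68 and 1.29 log2 units. PTX3, a pentraxin that binds TNFAIP6 and heavy chains in cross-linked hyaluronan, was higher at 6 h in all 4 groups (1.94, 1.78, 2.79 and 3.48 log2 units). At 24 h it was lower in VP64_A than in VP64_Ctrl by 1.55 ± 0.33 (SE, adjusted p = 0.00317), with 7 to 13 counts per VP64_A library.

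**Figure D4:**
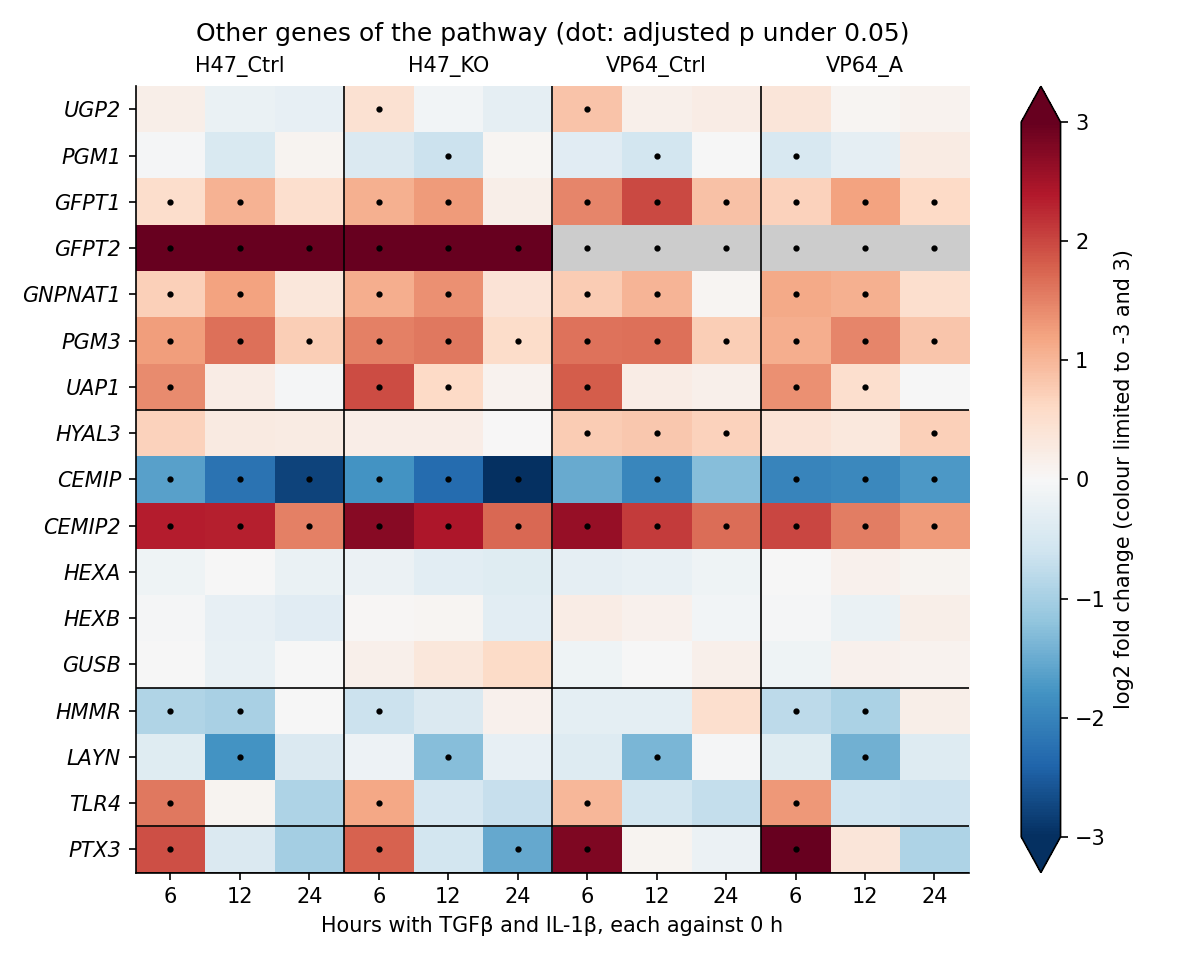
Log2 fold change against 0 h of 17 other genes of hyaluronan metabolism at 6, 12 and 24 h in the 4 groups of cells, with colour limited to -3 and 3 and a dot for an adjusted p under 0.05. Grey cells mark GFPT2 where the 0 h libraries held 0 to 3 counts. Most of the sugar-supply enzymes at the top carry dots at 6 h in every group, and CEMIP and CEMIP2 have opposite colours.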

How the data were processed

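The authors made 48 poly(A)-selected RNA-seq libraries (Dynabeads mRNA purification), ran FastQC, Trim Galore, SortMeRNA and STAR on GRCh38, and quantified genes with Salmon. Tool versions, annotation and counting strand are not given in the sources used here. The deposited gene tables hold estimated counts, of which 6.38% of values were not whole and were rounded, and TPM, which the authors scaled for transcript length and depth.

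Each arm (24 libraries, 8 conditions) was fitted apart with edgeR 4.0.16 in R 4.3.3 (quasi-likelihood test, TMM scaling, filterByExpr with a minimum count of 10 and a minimum total of 15). The genes kept numbered 10962 for CRISPRko and 10980 for CRISPRa. P-values were adjusted by Benjamini-Hochberg over all genes of the arm, with a threshold of 0.05. Normalized CPM are counts scaled to the TMM library size, set separately in each arm. Fits were tested on simulated data. Among 48 replicate pairs 0 were identical, and the lowest chi-square per degree of freedom was 3.8. SE values come from the fit and SD values from the libraries of a condition, so both include the spread between libraries. Count limits cover counting error only.

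The members, the pathway list of 38 genes and the cell type markers were chosen with earlier results of these data known. Pathway genes were named where called with an absolute log2 change of at least 1 at 24 h. Gene positions are from GENCODE on GRCh38. Alternatives were DESeq2 1.42.0, its size factors in edgeR, no filter, the replicate number as a block, limma 3.58.1 on TPM values in log2 with 1 or 0.1 added, only the libraries compared, and leaving out each library. The contrasts of 24 h against 6 h and the average over the 4 times were added after seeing the data.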

Additional observations from a re-analysis of the deposited data

Results flagged for a closer look

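HAS3, which was too low to be tested, had 65 counts in H47_KO at 24 h replicate 3, above the 0 to 3 counts of the H47_Ctrl libraries. The other two libraries of that condition held 3 and 5 counts, and the highest HAS3 count among the remaining H47_KO libraries was 8. The same library held 9 VCAN counts. Its 21 GLIS3 counts (2.46 CPM of the library total) lay within the 2.34 to 3.76 CPM of H47_Ctrl at 24 h. The other H47_KO libraries held 1 to 9 GLIS3 counts. No cause was tested, and the 12 calls over time in H47_KO numbered 12 without this library.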

How the results depend on the processing

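The number of calls among the 5 detected members over 3 times was 12 in H47_Ctrl, 12 in H47_KO, 13 in VP64_Ctrl and 11 in VP64_A, and without single libraries it ranged from 10 to 13, 12 to 12, 12 to 13 and 10 to 11. Between H47_KO and H47_Ctrl 0 of 20 were called, 3 with DESeq2, 1 without the filter and 0 to 1 without single libraries. Between VP64_A and VP64_Ctrl 11 of 20 were called, 10 to 11 without single libraries and 14 with limma on log2(TPM + 1). On that scale more of all genes were also called lower in VP64_A, 989 at 0 h and 297 at 24 h. The main fit called 562 and 234 lower at these times. Interactions numbered 0 in the CRISPRko arm, 1 with DESeq2 and 1 without the filter, and 0 in the CRISPRa arm, 1 with DESeq2. On log2(TPM + 1) and log2(TPM + 0.1), uncalled values changed sign for UGDH at 24 h over 0 h in H47_KO (0.12 and 0.12), VP64_Ctrl (-0.33 and -0.34) and VP64_A (-0.23 and -0.24), for CD44 in VP64_A over VP64_Ctrl at 0 h (-0.35 and -0.35) and for HAS2 in H47_KO over H47_Ctrl at 24 h (0.16 and 0.16). Without single libraries uncalled values changed sign for UGDH at 24 h over 0 h in H47_KO (-0.12 to 0.18) and VP64_Ctrl (-0.0198 to 0.060), CD44 in VP64_A over VP64_Ctrl at 24 h (-0.12 to 0.0859), and HAS2 in H47_KO over H47_Ctrl at 0 h (-0.17 to 0.16) and 12 h (-0.28 to 0.0425). The causes were not tested. The TPM scales shifted the median of all genes by -0.761 to 0.597, and the share of calls that were higher at 6 h in VP64_Ctrl went from 56.1% to 7.97%. The labels do not say whether replicate numbers pair libraries. Correlations ran from -0.0479 to 0.149 over 24 same-number pairs, with 5 over 0.1. Between libraries of different numbers they ran from -0.135 to 0.0913. Whether the numbers mark a pairing was not tested. The replicate block changed 1 call, CD44 at 24 h over 0 h in VP64_Ctrl (0.63, adjusted p = 0.0605). HAS1, HAS3 and VCAN were below what these depths allow to be compared.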
